A study of Rattus norvegicus with 6 samples.

Results

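Heat shock proteins and their partner chaperones were followed in the RNA-seq of spinal cord tissues from 3 rats with neuropathic pain after spared nerve injury (SNI-NP) and 3 sham rats. Members were chosen by gene symbol (Hspa to Hsph, Hsp90, Dnaja, Dnajb, Dnajc, Bag, Cct2 to Cct8, Ahsa, Chordc, Stip1, Cacybp and Hsf) and by a measured value, a summed count of at least 60 over the 6 libraries. The name rule matched 100 of the 22050 genes in the table, and 89 of them reached that minimum. The other 11 fell short, and 3 of these had no count in any library. *Dnajb13* (summed count 173) and *Hspb7* (178) were the members nearest above the minimum, and *Hsf2bp* (48) and *Cct6b* (26) the matching genes nearest below it. *Hspbap1* matched by name although its product binds a small heat shock protein and is not itself a chaperone. The heat shock factors, which are transcription factors, also matched by name.

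The rats were male Sprague–Dawley animals aged 8 to 10 weeks, and no transgene or drug is named for those sequenced. In SNI-NP rats branches of the sciatic nerve were injured and the sural branch was spared, whereas sham rats had the control operation. The time between surgery and tissue collection, and the side and segment of cord taken, were not given in the sources used here. Each library held between 16670760 and 18151156 estimated counts, and the 89 members together took 0.918%, 0.936% and 0.955% of the counts in sham rats and 0.731%, 0.872% and 0.814% in SNI-NP rats.

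Chaperones help newly made or damaged proteins reach and keep their fold. HSP70 proteins bind exposed hydrophobic stretches in cycles of ATP hydrolysis that are started by HSP40 (DnaJ) proteins and ended by nucleotide exchange factors, and HSP90 finishes the folding of receptors and kinases with the help of co-chaperones. Under stress the transcription factor HSF1 is released from chaperones and binds heat shock elements, in which GAA and TTC units alternate, so that a subset of chaperone genes is transcribed more. Neurons, with their long axons and slow turnover, depend on these proteins for protein quality control.

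Tissue markers were read first. Markers of astrocytes, oligodendrocytes, motor neurons and microglia were detected in all 6 libraries with none at 0. Markers of dorsal root ganglion neurons (5 of 5, summed at 196 to 1567 CPM, counts divided by the TMM-scaled size of the library) were also detected in every library. The ganglion sum was 524, 918 and 1073 CPM in sham rats 1 to 3 and 196, 1567 and 1099 CPM in SNI-NP rats 1 to 3, so that SNI-NP rat 1 stood lowest and SNI-NP rat 2 highest. Skeletal muscle markers summed to 10.99, 66.0 and 27.7 CPM in sham rats and 148, 9.83 and 394 CPM in SNI-NP rats. At an unadjusted p under 0.05 in edgeR, SNI-NP rats were higher for 3 of 3 blood markers, 1 of 4 skeletal muscle markers, 1 of 3 markers of meninges and fibroblasts and 1 of 2 ependymal markers. They were lower for 2 of 4 glucocorticoid-response genes, 1 of 4 neuronal markers and 1 of 4 astrocyte markers. No marker of motor neurons, oligodendrocytes, microglia, ganglion neurons or immediate early response passed in either direction. The median log2 fold changes (SNI-NP over sham) were -0.65 for motor neuron markers, -0.63 for astrocyte markers, -0.31 for oligodendrocyte markers and -0.24 for neuronal markers. The part of these tissue differences in the results for the members was not tested.

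Promoters of the members were searched for heat shock elements of a strict form close to the start of transcription. RefSeq promoters (assembly GRCr8, 250 bases before to 50 after the start) were given for 71 of the 89 members, and *Hsp90aa1* was not among them. These are RefSeq windows and not the genome release of the deposited counts. The element was searched on both strands as GAANNTTCNNGAA or TTCNNGAANNTTC, and overlapping matches were joined. It was found in 7 of the 71 member promoters (9.86%) and in 267 of all 33469 RefSeq promoters (0.798%). Of the 15 stress-inducible members with a promoter, 6 (40%) held it. The 7 members were *Cct4*, *Chordc1*, *Dnaja1*, *Hspa8*, *Hspd1*, *Hspe1* and *Hsph1*. The promoters of *Chordc1*, *Dnaja1* and *Hspe1* are shown because they hold the element and these genes were among the lower members, and that of *Hspa8* because it holds the element at a pair of separate places and did not pass the test. Capitals mark the element, 5′ to 3′ on the strand of the gene.
Chordc1, chr8:23650571-23650870 on the plus strand: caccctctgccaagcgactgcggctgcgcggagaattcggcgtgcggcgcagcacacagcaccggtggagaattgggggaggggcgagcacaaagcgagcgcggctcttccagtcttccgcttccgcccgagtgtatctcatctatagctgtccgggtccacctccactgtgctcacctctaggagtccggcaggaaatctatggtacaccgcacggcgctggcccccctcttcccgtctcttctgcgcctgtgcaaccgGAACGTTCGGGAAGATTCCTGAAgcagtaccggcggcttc
Dnaja1, chr5:60638154-60638453 on the plus strand: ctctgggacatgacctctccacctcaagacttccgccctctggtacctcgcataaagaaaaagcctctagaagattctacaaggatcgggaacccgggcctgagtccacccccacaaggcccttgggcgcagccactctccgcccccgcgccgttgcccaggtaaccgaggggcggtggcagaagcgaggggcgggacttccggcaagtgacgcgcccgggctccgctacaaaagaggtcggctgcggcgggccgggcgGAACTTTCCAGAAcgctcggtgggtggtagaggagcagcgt
Hspe1, chr9:64084077-64084376 on the plus strand: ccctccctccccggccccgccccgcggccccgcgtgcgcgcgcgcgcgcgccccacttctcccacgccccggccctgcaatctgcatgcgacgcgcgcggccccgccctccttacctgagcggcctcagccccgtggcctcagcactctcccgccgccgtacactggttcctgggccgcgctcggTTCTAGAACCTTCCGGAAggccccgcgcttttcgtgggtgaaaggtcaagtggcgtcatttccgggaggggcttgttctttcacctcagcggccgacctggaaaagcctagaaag
Hspa8, chr8:50080264-50080563 on the plus strand: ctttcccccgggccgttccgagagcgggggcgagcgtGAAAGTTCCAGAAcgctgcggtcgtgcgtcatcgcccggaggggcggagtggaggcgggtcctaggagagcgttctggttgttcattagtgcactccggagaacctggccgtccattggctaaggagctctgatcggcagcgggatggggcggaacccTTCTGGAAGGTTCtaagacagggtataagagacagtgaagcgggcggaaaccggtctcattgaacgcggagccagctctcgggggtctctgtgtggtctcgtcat

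In *Chordc1* 3 overlapping matches run from base 11 to base 33, counted from the start as base 1, and in *Dnaja1* a single match lies at bases 10 to 22. In *Hspe1* the matches lie 65 to 48 bases before the start. *Hspd1* is on the opposite strand, and the windows of *Hspd1* and *Hspe1*, which encode the partners of the mitochondrial chaperonin, overlap by 211 bases, so that both hold the same element. The *Hspa8* matches lie between 213 and 43 bases before the start. The short stretches around the element of *Hsph1*, 36 to 24 bases before the start, and of *Cct4*, the single CCT member with a match, are given for comparison.
Hsph1, chr12:10427317-10427359 on the plus strand: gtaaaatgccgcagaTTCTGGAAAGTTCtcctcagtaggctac
Cct4, chr14:101193067-101193106 on the plus strand: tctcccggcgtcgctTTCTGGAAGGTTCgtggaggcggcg

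A match describes the letters of the window and was not tested for binding. Imperfect elements and elements outside the window were not searched, so a member without a match may still have an element. The match was present both in members that were lower in SNI-NP rats and in members that did not pass the test.

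Levels were compared per gene length, as deposited FPKM averaged over the 6 libraries. Among single rows *Hsp90ab1*, the main cytosolic HSP90 of unstressed cells, was the highest member at 741 FPKM. It was followed by the single row of *Hspa8* (176 FPKM), the main HSP70 of unstressed cells, which leaves out reads counted in its copies. Next were *Hsp90aa1* (149 FPKM), the stress-inducible HSP90, and *Hspa5* (143 FPKM), the HSP70 of the endoplasmic reticulum. Summed with its copies and not divided by length, *Hspa8* had a mean of 2060 CPM in sham rats, against 1849 CPM for *Hsp90ab1*. In SNI-NP rats both means were 1736 CPM, so the first rank holds for single rows. *Cct5* at 141 FPKM led the CCT chaperonin, the ring that folds actin and tubulin, and *Hspb1* at 106 FPKM led the small heat shock proteins, which hold unfolded proteins until HSP70 takes over. The heat shock factors were low, with *Hsf1* the highest at 8.21 FPKM. *Dnajb13*, a protein of motile cilia, at 0.738 FPKM and *Hspb7*, a small heat shock protein known from heart and muscle, at 0.840 FPKM were the lowest members. The leading members of the remaining roles were *Stip1* (86.4 FPKM), *Dnajb2* (75.4 FPKM), *Dnajc8* (63.8 FPKM), *Dnaja1* (62.1 FPKM), *Hspd1* (57.7 FPKM) and *Bag1* (44.2 FPKM).

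**Figure D1:**
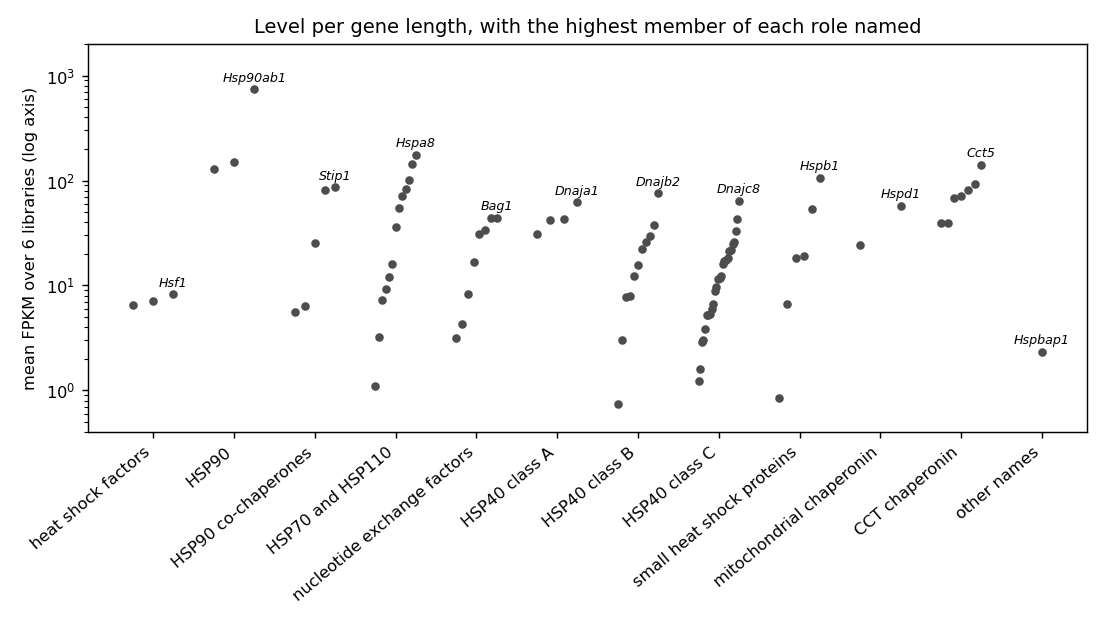
Each point is 1 member, placed by role on the x axis and by its mean FPKM over the 6 libraries on a log y axis, with the highest member of each role named. Among these single rows, without copies, *Hsp90ab1* stands highest at 741 FPKM and *Dnajb13* lowest at 0.738 FPKM.

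The comparison of SNI-NP with sham rats asked which of these genes differed after nerve injury. The inducible HSP90 gene *Hsp90aa1*, its co-chaperones *Chordc1* and *Cacybp* and the HSP70 partners *Hspa4l* and *Dnaja1* were lower in SNI-NP rats. So were both mitochondrial chaperonin genes, *Hspa5*, *Dnajb14* and 5 HSP40 genes of class C, while *Hspb7* and *Dnajc30* were higher. These calls rest on an unadjusted p under 0.05 in edgeR, and none passed after adjustment there. The heat shock factors, *Hsp90ab1*, *Dnajb1* and the CCT chaperonin did not pass the test. All 89 members passed the filter on low counts and were fitted with all 14426 genes that passed it. In SNI-NP rats 14 of the 89 members were lower at an unadjusted p under 0.05 in edgeR's quasi-likelihood test, against a background of 5.94% of all genes tested, and 2 were higher, against a background of 4.91%. In what follows lower, higher and passing the test refer to that unadjusted threshold. The median log2 fold change (log2FC, SNI-NP over sham) was -0.10 over the members and 0.01 over all genes tested, and 61 of the 89 members had a value below 0. After Benjamini-Hochberg adjustment over all genes 0 of the 89 members and 0 of the 14426 genes (0.0%) passed 0.05 in edgeR, and the lowest adjusted p of a member was 0.117 for *Hsp90aa1*. DESeq2, run as an alternative, called 6 members at an adjusted p under 0.05 (*Hsp90aa1*, *Chordc1*, *Hspb7*, *Cacybp*, *Hspa4l* and *Dnaja1*), against a background of 1.31% of the genes it tested. The 3 SNI-NP values lay all below the 3 sham values in 18 members (background 8.15%) and all above them in 4 (background 10.4%). Without sham rat 3 the number of lower members was 8 (8.99%, against 4.41% of all genes in that fit). The number of higher members was 1 without sham rat 3 (2.57% of all genes) or SNI-NP rat 2 (5.17% of all genes). Without SNI-NP rat 1 the median of the members was -0.05. In these bulk samples fewer cells of a type and less RNA per cell cannot be told apart.

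**Figure D2:**
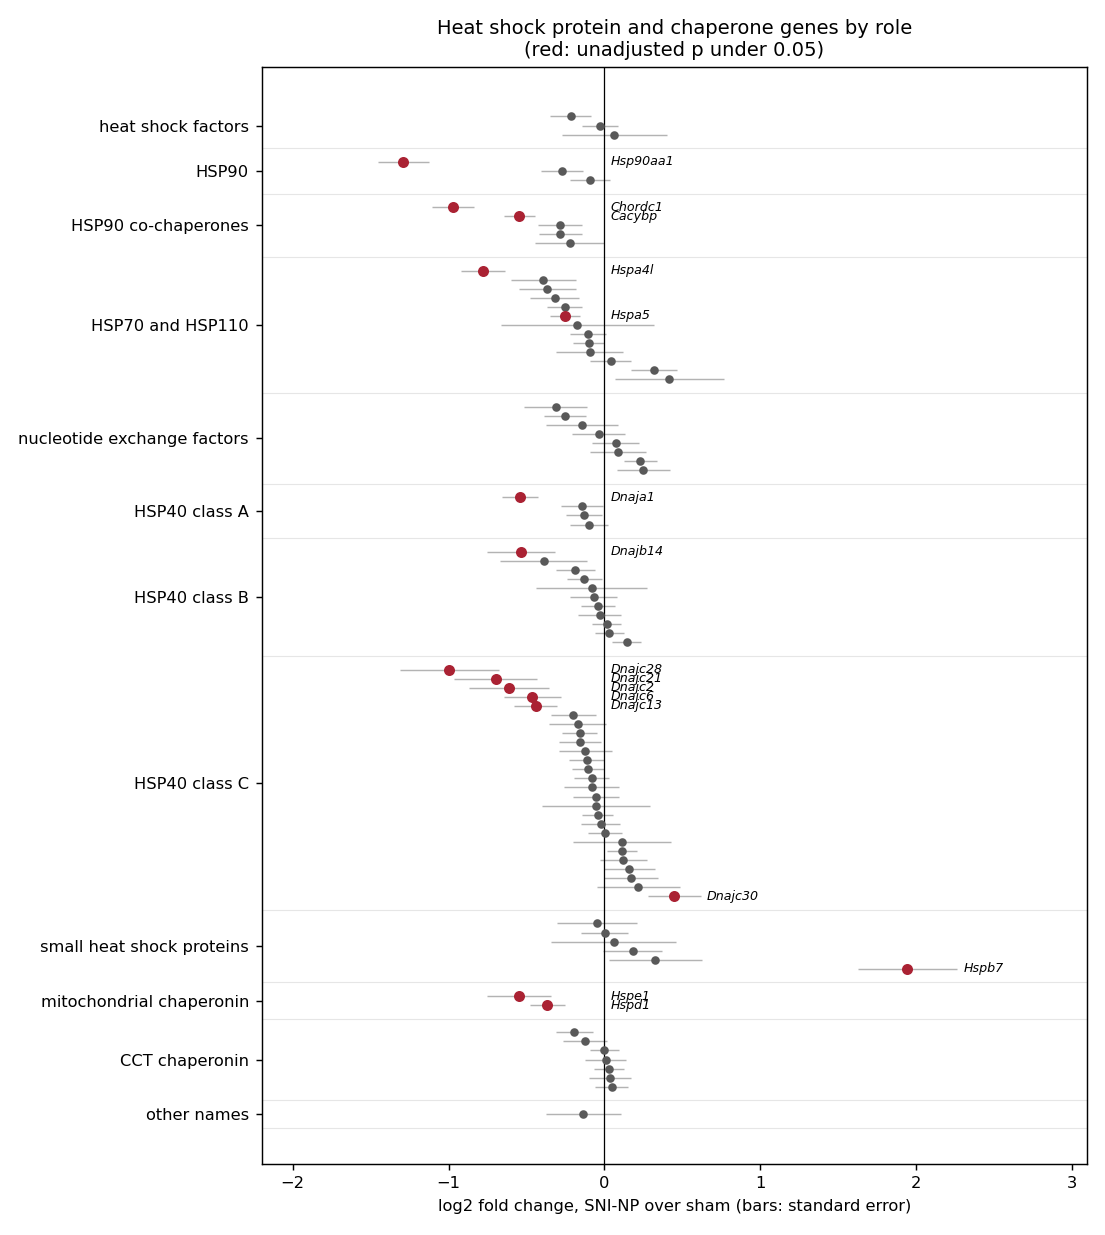
Each point is the log2FC of 1 member (SNI-NP over sham, x axis) with its standard error, grouped by role (y axis), and red points have an unadjusted p under 0.05. The 14 lower members spread over HSP90, its co-chaperones, HSP70, the HSP40 classes and the mitochondrial chaperonin, and *Hspb7* stands apart at 1.95.

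The 3 heat shock factors did not pass the test. *Hsf1*, the main activator of the heat shock response, was at 19.2, 19.8 and 21.1 CPM in sham rats and 18.1, 20.3 and 20.5 CPM in SNI-NP rats. The groups overlapped, with a log2FC of -0.03 (standard error, SE, 0.12). *Hsf2* had a log2FC of -0.22 (SE 0.13) and *Hsf4* of 0.06 (SE 0.34). *Hsf4* was lowest in SNI-NP rat 1 at 6.33 CPM and highest in SNI-NP rat 2 at 17.5 CPM.

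HSP90 genes differed in how far apart the groups were. *Hsp90aa1* was at 572, 624 and 545 CPM in sham rats and 292, 195 and 225 CPM in SNI-NP rats. Every SNI-NP rat was below every sham rat, with a mean of 580 ± 40.1 CPM for sham and 237 ± 49.7 CPM for SNI-NP (SD, n = 3 each). The log2FC was -1.29 (SE 0.16, edgeR adjusted p = 0.117). *Hsp90ab1* was at 1817, 1759 and 1970 CPM in sham rats and 1514, 1934 and 1758 CPM in SNI-NP rats. Its groups overlapped, with a log2FC of -0.09 (SE 0.13). *Hsp90b1*, the HSP90 of the endoplasmic reticulum, had a log2FC of -0.27 (SE 0.13) and did not pass the test (edgeR adjusted p = 0.496).

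Within each library the FPKM of *Hsp90aa1* was 27.7%, 31.0% and 24.2% of that of *Hsp90ab1* in sham rats and 16.9%, 8.83% and 11.2% in SNI-NP rats. The log2 ratio differed by -1.21, with no overlap between groups. The exact permutation test (two-sided) gave p = 0.1, the smallest that 3 against 3 allows, so the design cannot reach 0.05. The same p, 0.1 after adjustment over 4 pairs chosen after the values were seen, held for the exact permutation test of *Hspa4l* over *Hspa4* (-0.52), *Dnaja1* over *Dnaja2* (-0.40) and *Chordc1* over *Stip1* (-0.69).

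Beside these values, motor neuron markers summed to 37.8, 15.6 and 32.9 CPM in sham rats and 18.1, 18.2 and 17.3 CPM in SNI-NP rats. The markers in that sum differed in order. *Isl1* was lowest in SNI-NP rat 1 and highest in SNI-NP rat 2, as the ganglion sum was, while *Chat* and *Slc5a7* were highest in sham rat 1. Astrocyte markers summed to 1487, 569 and 1093 CPM in sham rats and 1034, 714 and 660 CPM in SNI-NP rats. The groups overlapped in both sums through sham rat 2, and the part of these cell types in the *Hsp90aa1* difference was not tested. A copy described in the table by the same protein name, *LOC103692716*, held between 0 and 950 estimated counts. Summed with it, the log2FC of *Hsp90aa1* was -1.30 (SE 0.18).

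**Figure D3:**
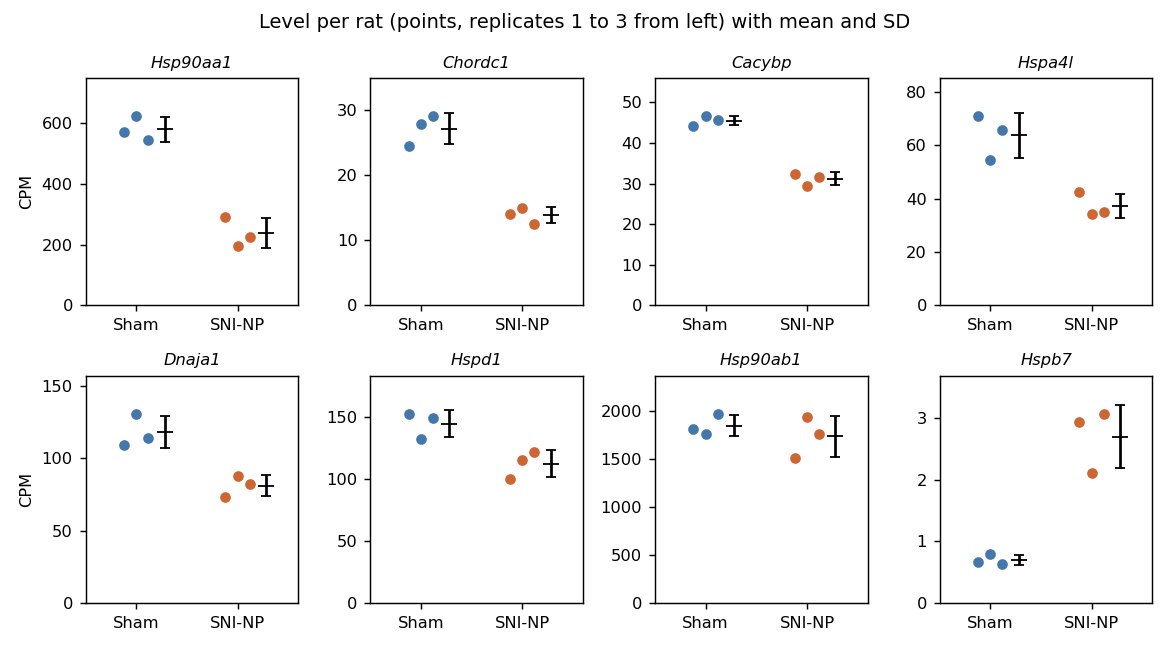
CPM (y axis, from 0) of 8 members in each rat of both groups (x axis), as points with the mean and SD (n = 3) beside them. In 6 of the members the SNI-NP points lie below all sham points, in *Hspb7* above them, and in *Hsp90ab1* the groups overlap.

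Of the 5 HSP90 co-chaperones 2 were lower, *Chordc1* and *Cacybp* (40%, against 5.94% of all genes tested). *Chordc1*, a zinc-binding partner of HSP90, was at 24.5, 27.8 and 29.0 CPM in sham rats and 14.1, 14.9 and 12.5 CPM in SNI-NP rats. The groups were clear of each other, with a log2FC of -0.97 (SE 0.13, edgeR adjusted p = 0.159). *Cacybp*, a partner of the ubiquitin ligase SIAH1 that shares the CS domain of HSP90 co-chaperones, was at 44.2, 46.6 and 45.7 CPM in sham rats and 32.4, 29.5 and 31.7 CPM in SNI-NP rats. The groups were again separate, and the log2FC was -0.54 (SE 0.10, edgeR adjusted p = 0.274). *Stip1*, which carries substrates from HSP70 to HSP90, had a log2FC of -0.29 (SE 0.14) and *Ahsa1*, which speeds up the ATPase of HSP90, of -0.28 (SE 0.14), and neither passed the test. Both were past an unadjusted p of 0.05 without sham rat 2 (-0.40 and -0.39) and without SNI-NP rat 2 (-0.37 and -0.37).

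Among the 13 HSP70 and HSP110 genes 2 were lower (15.4%, against 5.94% of all genes tested). *Hspa4l*, an HSP110-type partner of HSP70, was at 71.0, 54.4 and 65.9 CPM in sham rats and 42.5, 34.2 and 34.8 CPM in SNI-NP rats. No SNI-NP rat reached a sham value, and the log2FC was -0.78 (SE 0.14, edgeR adjusted p = 0.274). *Hspa5*, the chaperone of the endoplasmic reticulum also called BiP, was at 380, 412 and 399 CPM in sham rats and 347, 325 and 326 CPM in SNI-NP rats. The groups did not overlap, but the difference was small, with a log2FC of -0.25 (SE 0.09, edgeR adjusted p = 0.436), and p was over 0.05 without sham rat 3, SNI-NP rat 2 or SNI-NP rat 3.

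*Hspa8* was at 377, 343 and 414 CPM in sham rats and 254, 367 and 287 CPM in SNI-NP rats. SNI-NP rat 2 lay among the sham rats, and the log2FC of -0.32 (SE 0.16) did not pass the test. The table holds further rows described as the same protein or one similar to it, between which shared reads could be split, and the row of *Hspa8* held 17.9% of the counts summed over *Hspa8* and 4 copies. The summed level was 2008, 1925 and 2246 CPM in sham rats and 1447, 2093 and 1669 CPM in SNI-NP rats, with a log2FC of -0.25 (SE 0.16). *Hsph1*, the stress-inducible HSP110, was at 206, 197 and 239 CPM in sham rats and 125, 202 and 171 CPM in SNI-NP rats. The groups overlapped through SNI-NP rat 2, with a log2FC of -0.37 (SE 0.18). Without SNI-NP rat 2 *Hspa8* (-0.48) and *Hsph1* (-0.53) were past an unadjusted p of 0.05.

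*Hspa1b*, the HSP70 that responds most to heat in many cells, was low and uneven, at 3.002, 12.3 and 9.95 CPM in sham rats and 5.58, 6.39 and 10.5 CPM in SNI-NP rats. Its row held 21.5% of the counts summed with *LOC108348108*, described as the protein 1A, and *Hspa1l*. The sum was 29.4, 35.0 and 43.1 CPM in sham rats and 37.8, 34.9 and 42.3 CPM in SNI-NP rats, with a log2FC of 0.10 (SE 0.16) against -0.17 (SE 0.49) for the row alone. Neither value passed the test.

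The HSP40 proteins start the ATP cycle of HSP70 and were the largest group, with 4 members of class A, 11 of class B and 26 of class C. In class A *Dnaja1*, a cytosolic partner of HSC70, was lower, at 109, 131 and 114 CPM in sham rats and 73.5, 87.6 and 82.0 CPM in SNI-NP rats. Sham and SNI-NP values were separate, with a log2FC of -0.54 (SE 0.12, edgeR adjusted p = 0.308). In class B 1 of 11 was lower (9.09%, against 5.94% of all genes tested). It was *Dnajb14*, an endoplasmic reticulum membrane protein (-0.53, SE 0.22, edgeR adjusted p = 0.445). *Dnajb1*, the classical heat-inducible HSP40, was at 77.7, 79.2 and 92.2 CPM in sham rats and 86.0, 79.8 and 76.4 CPM in SNI-NP rats. Its groups overlapped, with a log2FC of -0.04 (SE 0.11). *Dnajb2*, which is enriched in neurons, had a log2FC of -0.13 (SE 0.11) and *Dnajb13* of -0.08 (SE 0.36).

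In class C 5 of 26 were lower (*Dnajc13*, *Dnajc28*, *Dnajc21*, *Dnajc6* and *Dnajc2*) and 1 was higher (*Dnajc30*). These shares were 19.2% and 3.85%, against 5.94% and 4.91% of all genes tested. *Dnajc13*, which acts on endosomes, was at 37.8, 47.6 and 44.5 CPM in sham rats and 31.8, 28.3 and 35.5 CPM in SNI-NP rats. The groups were separate by a small margin, with a log2FC of -0.44 (SE 0.14, edgeR adjusted p = 0.423), and with offsets for transcript length it was -0.22 and did not pass the test. *Dnajc28* was at 1.92, 3.04 and 1.98 CPM in sham rats and 1.15, 1.17 and 1.16 CPM in SNI-NP rats. All SNI-NP values were below the sham values, with a log2FC of -0.99 (SE 0.32, edgeR adjusted p = 0.436), and without sham rat 2 it was -0.74 and did not pass the test. *Dnajc30*, a mitochondrial protein, was at 9.97, 12.2 and 11.2 CPM in sham rats and 16.3, 16.8 and 12.5 CPM in SNI-NP rats. SNI-NP rat 3 exceeded the highest sham rat only slightly, the log2FC was 0.45 (SE 0.17, edgeR adjusted p = 0.440), and it passed the unadjusted test in 2 of 6 fits with 1 library left out. *Dnajc6* or auxilin, which uncoats clathrin vesicles at nerve terminals, had a log2FC of -0.46 (SE 0.18, edgeR adjusted p = 0.445). Its groups overlapped, with sham rat 2 (72.95 CPM) below SNI-NP rats 2 (76.9 CPM) and 3 (74.7 CPM). *Dnajc21* (-0.70) and *Dnajc2* (-0.61), both linked to ribosomes, had SEs of 0.27 and 0.26. Their groups did not overlap, and their edgeR adjusted p values were 0.440 and 0.454. *Dnajc8*, a splicing-associated protein and the highest of class C, had a log2FC of 0.11 (SE 0.09) and did not pass the test.

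None of the 8 members grouped here by name as nucleotide exchange factors, the Bag family and *Hspbp1*, passed the test in either direction. The HSP110 genes, among them the lower member *Hspa4l*, were grouped with HSP70. *Bag3*, which pairs with HSPB8 in selective autophagy, was at 72.6, 68.6 and 93.0 CPM in sham rats and 47.3, 87.0 and 77.6 CPM in SNI-NP rats. SNI-NP rat 1 was lowest and the other SNI-NP rats lay among the sham rats, with a log2FC of -0.14 (SE 0.23). *Bag1* had a log2FC of -0.04 (SE 0.17). *Bag5* and its near copy *Bag5l1* had log2FC values of -0.25 and 0.25, and their sum had one of -0.07 (SE 0.09).

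Both partners of the mitochondrial chaperonin were lower. *Hspd1*, which encodes HSP60, was at 152, 132 and 149 CPM in sham rats and 100, 115 and 121 CPM in SNI-NP rats. The groups did not overlap, with a log2FC of -0.37 (SE 0.11, edgeR adjusted p = 0.423). *Hspe1*, which encodes its lid HSP10, was at 6.66, 8.34 and 8.27 CPM in sham rats and 5.58, 5.998 and 4.35 CPM in SNI-NP rats. These also did not overlap, with a log2FC of -0.55 (SE 0.20, edgeR adjusted p = 0.439). With offsets for transcript length the value for *Hspe1*, a short transcript, was -0.21 and did not pass the test, and p was over 0.05 without sham rat 2, sham rat 3 or SNI-NP rat 3. Over the 8 mitochondrial members 2 were lower (*Hspd1* and *Hspe1*) and 1 was higher (*Dnajc30*). These shares were 25% and 12.5%, against 5.94% and 4.91% of all genes tested. On a list of 9 members of the endoplasmic reticulum, which leaves out the lower member *Dnajb14*, 1 was lower (*Hspa5*) and none was higher. The lower share was 11.1%, against the same 5.94%.

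None of the 7 members of the cytosolic CCT chaperonin passed the test, and their log2FC values ran from -0.19 for *Cct8* to 0.05 for *Cct7*. *Cct5* was at 225, 253 and 252 CPM in sham rats and 225, 295 and 228 CPM in SNI-NP rats, with overlapping groups and a log2FC of 0.04 (SE 0.13).

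Of the 6 members grouped by name as small heat shock proteins 1 was higher (16.7%, against 4.91% of all genes tested). *Hspb7* was at 0.660, 0.789 and 0.640 CPM in sham rats and 2.93, 2.11 and 3.07 CPM in SNI-NP rats, from 11, 14 and 11 counts and 51, 38 and 53 counts. Every SNI-NP value was above every sham value, with a log2FC of 1.95 (SE 0.32, edgeR adjusted p = 0.220). *Hspb7* is known as a muscle gene. The 4 skeletal muscle markers had log2FC values of 2.18 to 3.01, and their sum had the same order as *Hspb7* among the SNI-NP rats, highest in rat 3 and lowest in rat 2. It was also highest in rat 2 among the sham rats, as was *Hspb7*, and across all libraries it was lowest in SNI-NP rat 2. The part of muscle RNA in the *Hspb7* difference was not tested.

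*Hspb1*, which encodes HSP27 and is abundant in sensory and motor neurons, was at 72.3, 71.0 and 104 CPM in sham rats and 60.6, 134 and 117 CPM in SNI-NP rats. SNI-NP rat 1 was the lowest and the other SNI-NP rats the highest of all 6, and the log2FC was 0.33 (SE 0.30). Without SNI-NP rat 1 it was 0.60 and past an unadjusted p of 0.05. *Hspb8*, which forms a complex with BAG3, was at 73.8, 91.2 and 113 CPM in sham rats and 42.0, 145 and 103 CPM in SNI-NP rats, with a log2FC of 0.06 (SE 0.40). Both genes were lowest in SNI-NP rat 1 and highest in SNI-NP rat 2, as was the sum of the ganglion markers. Members with that pattern numbered 6 of 89 (6.74%), against 5.05% of all genes tested. The part of ganglion RNA in these values was not tested.

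**Figure D4:**
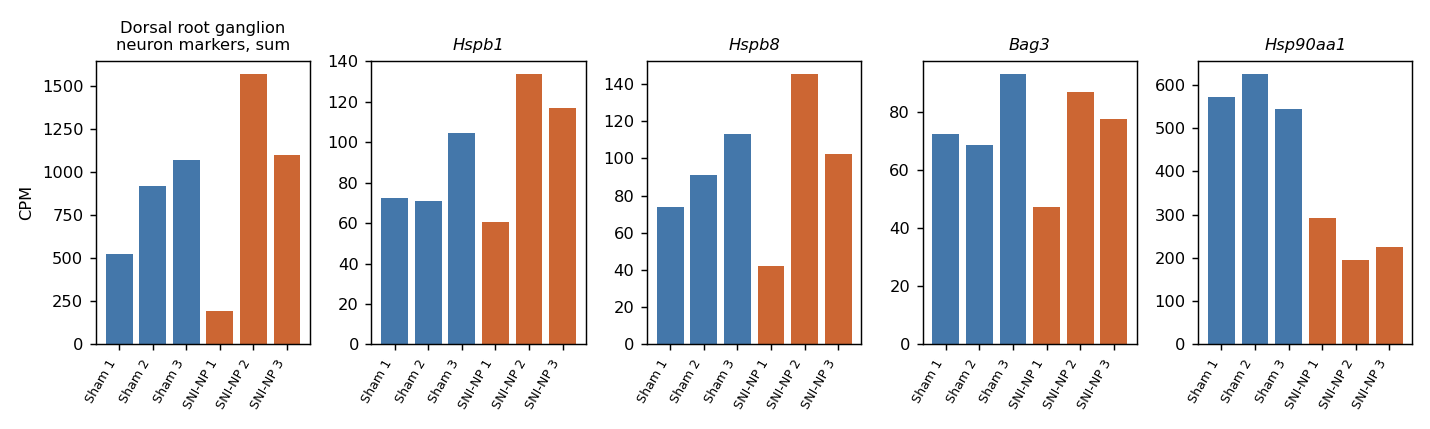
Bars give CPM (y axes, from 0) in each of the 6 libraries (x axis, blue for sham and orange for SNI-NP) for the summed markers of dorsal root ganglion neurons and for 4 members. *Hspb1* and *Hspb8* share the lowest (SNI-NP rat 1) and highest (SNI-NP rat 2) library with the markers, while *Hsp90aa1* is lower in all 3 SNI-NP rats.

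The members known to be raised by heat or proteotoxic stress formed a list of 17 in the table, which includes *Hsp90ab1* and *Hspa8*, genes that are also high without stress. In SNI-NP rats 7 of them were lower (*Hsp90aa1*, *Chordc1*, *Hspa4l*, *Hspe1*, *Cacybp*, *Dnaja1* and *Hspd1*) and none was higher. The lower share was 41.2%, and over all genes tested 5.94% were lower and 4.91% higher. The median log2FC of the list was -0.32, against 0.01 over all genes tested. The list was drawn up with earlier results of these data known, so its direction is a description, as are its shares in the fits that follow. Among the 72 members outside it 7 were lower (9.72%) and 2 higher (2.78%), against the same 5.94% and 4.91%. Their median was -0.07. The 10 members of the list that did not pass included *Hspa1b*, *Dnajb1*, *Hspb1*, *Bag3* and *Hsph1*, which are among the genes most raised by heat shock. Over the fits that left out 1 library, 6 to 11 of the list were lower (35.3% to 64.7%), against 4.10% to 9.52% of all genes. The highest number, 11, came without SNI-NP rat 2 (64.7%, against 4.33% of all genes in that fit). Without SNI-NP rat 1, 1 of the list was higher (5.88%, against 3.56% of all genes), and the median of the list was -0.21.

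Library by library the median of the 17 members, as log2 CPM less each gene's mean in the 3 sham rats, was -0.05, -0.07 and 0.12 in sham rats and -0.52, -0.11 and -0.32 in SNI-NP rats. All 3 SNI-NP rats were below the sham rats, SNI-NP rat 1 farthest. SNI-NP rat 1 was the lowest library for 32 of the 89 members (36.0%), against 17.1% of all genes tested. Of the 14 lower members, *Cacybp*, *Chordc1*, *Dnaja1*, *Hsp90aa1*, *Hspa4l* and *Hspd1* kept an unadjusted p under 0.05 in all 14 fits that were run, which included each of the 6 that left out 1 library. *Hsp90aa1*, *Chordc1* and *Hspa4l* also passed the adjusted threshold in edgeR without SNI-NP rat 1, as did 222 of the 14577 genes then tested (1.52%).

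**Figure D5:**
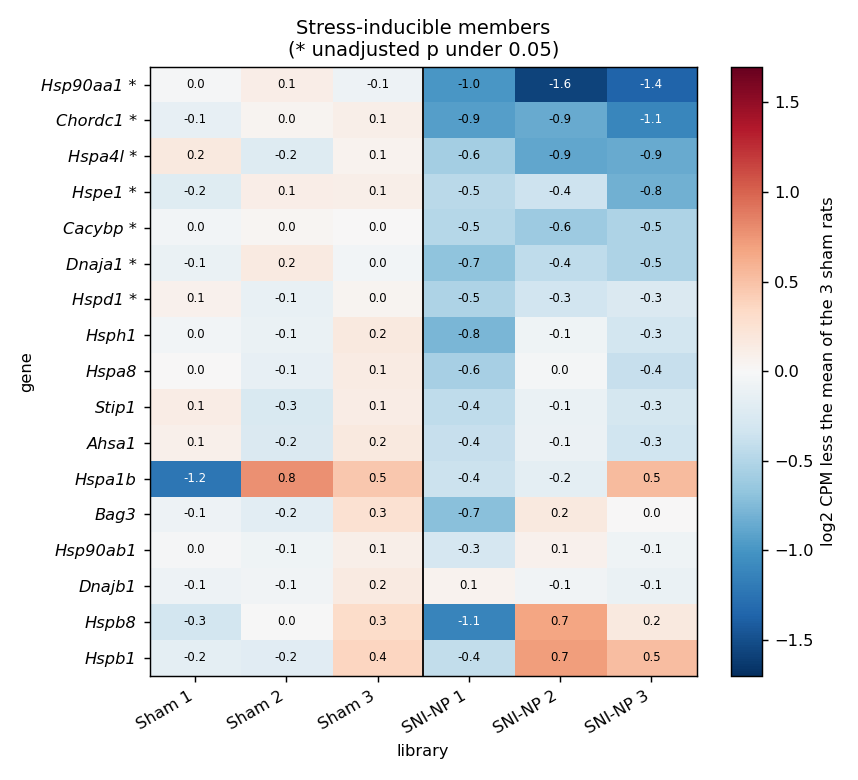
Colours and numbers give log2 CPM (with 0.1 added) of the 17 stress-inducible members (rows) in each library (columns), less the mean of the 3 sham rats, and asterisks mark an unadjusted p under 0.05. The 7 marked members are below the sham mean in all 3 SNI-NP rats, while *Hspb1* and *Hspb8* are below it only in SNI-NP rat 1 among the SNI-NP rats.

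Other genes of the pathway, which the name rule leaves out, were read from a list of 33. Of these (immunophilins, prefoldins, lectin chaperones and other HSP70 and HSP90 partners), 1 was lower (3.03%), which is below the 5.94% of all genes tested. None was higher, against 4.91% of all genes, and the median log2FC was -0.06. The lower gene was *Sugt1*, an HSP90 partner with the same CS domain as *Chordc1* and *Cacybp*, at 32.7, 34.6 and 34.2 CPM in sham rats and 26.3, 28.1 and 29.1 CPM in SNI-NP rats. The groups did not overlap, and the log2FC was -0.28 (SE 0.10, edgeR adjusted p = 0.436).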

How the data were processed

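Total RNA of spinal cord tissues from 3 sham and 3 SNI-NP rats was sequenced, and each library is 1 replicate. The authors deposited an estimated count per gene, not normalized, and an FPKM value, on the genome release they call Rat6. Per the submitters' processing notes FastQC, STAR and HTSeq were used, but 7 members held counts that were not whole, and strand use was not given in the sources used here. Counts were rounded and tested with edgeR 4.0.16 (R 4.3.3; filterByExpr, TMM, quasi-likelihood, condition the single term), with Benjamini-Hochberg adjustment over 14426 genes. The 3 counts that a value of 0 allows came to at most 0.18 CPM. With separate rats named but no further detail, p-values measure the spread between these samples. FPKM served for levels, ratios and gene length.

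The members and lists were chosen with earlier results of these data known. Named members were the stress-inducible list, up to 10 higher and 10 lower members by p, the highest of each role, the 2 lowest counts, *Hspbap1* and *Dnajc28*. All other members, and the copies, were named after their values were seen. Alternatives were DESeq2 1.42.0, RLE factors, no filter, 10 counts in every library, a replicate block, length offsets (loess span 0.5) with and without it, FPKM fold changes (pseudocount 0.01) and leaving out each library. Summing near-identical copies was added after seeing the data. The tests were also run on simulated counts with changes larger than those of the members, so that run does not show how smaller differences fare. One marker list is not reported here.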

Additional observations from a re-analysis of the deposited data

How the results depend on the processing

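The medians of all members and of the stress-inducible members kept their sign under every alternative run, and without SNI-NP rat 1 they were -0.05 and -0.21. The counts of lower (14) and higher (2) members stayed within 1.5 times under DESeq2, RLE size factors, no filter, a minimum of 10 counts and length offsets, although with length offsets *Hspe1* (-0.21) and *Dnajc13* (-0.22) no longer passed. Leaving out 1 library gave 8 to 16 lower members, 1 to 3 higher members and 0 to 3 members past the adjusted threshold. DESeq2 called 6. With the replicate block 11 members were lower (12.4%, against 6.04% of all genes) and 1 higher (1.12%, against 3.11%). The labels number the rats but do not say whether the numbers pair them. The deviations of same-numbered rats correlated at 0.214, -0.143 and 0.0538. Differently numbered rats were not compared, so these values do not decide the question. The cause of the differences between the fits was not tested.

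Of the named members, none that had passed the test changed sign. Over the fits that left out 1 library, log2 fold changes ran from -0.25 to 0.056 for *Bag1*, -0.32 to 0.077 for *Bag3*, -0.10 to 0.11 for *Cct5*, -0.10 to 0.012 for *Dnajb1*, -0.36 to 0.12 for *Dnajb13*, -0.094 to 0.027 for *Hsf1*, -0.59 to 0.22 for *Hspa1b*, -0.36 to 0.42 for *Hspb8* and -0.28 to 0.054 for *Hspbap1*. *Hspa1b* was at 0.10 with copies summed and 0.0047 with length offsets and the replicate block. *Hspb8* was at -0.089 with the replicate block and -0.092 with length offsets added. The depth limits *Hspb7*, *Dnajb13* and *Dnajc28* most, with few reads in each library.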
